A study of Mus musculus with 18 samples.

Results

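The endoplasmic reticulum (ER) chaperones and the factors of ER-associated degradation are described here through 37 genes, taken by name from a list of chaperones, folding enzymes, translocation components, degradation factors and stress sensors that was drawn up as genes tied to ATF6 and XBP1. The list was chosen with earlier results of these data known. Shares and medians of the 37 genes set beside those of all genes are therefore descriptions and no test of the list. All 37 are among the 53090 gene IDs of the deposited count table, and all 37 passed the filter on low counts, which left 19284 genes. RNA was sequenced from sorted mouse pancreatic beta cells in 18 libraries: LIRKO mice gave 3 on HFD and 4 on chow, and Ctrl mice gave 5 on HFD and 6 on chow. LIRKO mice lack the insulin receptor in the liver and not in the beta cell, so that the beta cell is studied in an animal with a liver that does not answer to insulin, and HFD is a high-fat diet. The sources used here do not give the driver of the deletion, the alleles of the Ctrl mice, age, sex, time on the diet or how many animals a library stands for. All 4 groups share the handling: islets were cultured overnight and dispersed with trypsin, and cells were gated on forward scatter and endogenous fluorescence. Nothing says that the libraries of a group come from separate animals, so the spread behind each p-value is one between libraries and may be technical.

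Secretory and membrane proteins enter the ER through the Sec61 channel and fold there with the help of Hsp70 and Hsp90 chaperones, lectin chaperones that read the glycan, disulfide isomerases and prolyl isomerases. Proteins that do not fold are recognised, drawn back through a membrane complex and passed to the proteasome, which is ER-associated degradation. Beta cells make proinsulin, a protein with disulfide bonds, in very large amounts, and the sensors IRE1 (Ern1), ATF6 and PERK adjust the folding machinery to that load. ATF6 and XBP1 act on many of these genes through the ER stress response element (ERSE).

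Since the genes were listed for their tie to ATF6 and XBP1, which act through ERSE, the presence of that motif follows in part from the choice of the list and is shown as a description. RefSeq windows (build GRCm38.p6, 250 bases before to 50 after the start) were at hand for 31 of the 37 genes and were searched on both strands for exact matches to ERSE, which is CCAAT, 9 bases of any kind, then CCACG. ERSE was found in 9 of the 31 genes (29.0%), namely Hspa5, Hsp90b1, Dnajc3, Creld2, Calr, Canx, Pdia6, Syvn1 and Derl3, against 37 of all 27025 genes with a window (0.137%). ERSE-II, which is ATTGG, 1 base of any kind, then CCACG, was found in Dnajb11 and Herpud1 (6.45%, against 0.0444% of all genes), and the core TGACGTGG in Txndc5 alone (3.23%, against 0.714%). No base was shared between the matches of different motifs, and in Hsp90b1 ERSE was found at 2 places. A match is a run of letters and says nothing of binding. The 7 runs below are from Hspa5 and from the genes with ERSE that passed the test in a later comparison. Genes that passed without ERSE in a window, such as Edem2, Fkbp11 and Sdf2l1, have no run here. The runs are written 5′ to 3′ on the strand of the gene and carry the ERSE match in capitals (a match on the opposite strand begins with CGTGG). The first run is from Hspa5 (chr2:34772013-34772055), the textbook ERSE gene, and the next 3 are from genes that were higher in LIRKO cells on chow: Hsp90b1 (chr10:86705521-86705668, minus strand), Creld2 (chr15:88819508-88819550) and Derl3 (chr10:75893230-75893272). The last 3 are from genes that were lower in Ctrl cells on HFD: Calr (chr8:84847063-84847105, minus strand), Canx (chr11:50325788-50325830, minus strand) and Pdia6 (chr12:17266479-17266521).
Hspa5: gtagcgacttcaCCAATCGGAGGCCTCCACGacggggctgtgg
Hsp90b1: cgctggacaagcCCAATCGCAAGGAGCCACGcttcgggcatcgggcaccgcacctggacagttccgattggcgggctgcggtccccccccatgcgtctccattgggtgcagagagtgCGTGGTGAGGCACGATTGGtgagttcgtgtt
Creld2: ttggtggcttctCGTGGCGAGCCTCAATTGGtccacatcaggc
Derl3: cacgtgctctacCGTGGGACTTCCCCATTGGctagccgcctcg
Calr: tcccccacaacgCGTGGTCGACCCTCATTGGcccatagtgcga
Canx: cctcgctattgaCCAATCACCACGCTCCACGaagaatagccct
Pdia6: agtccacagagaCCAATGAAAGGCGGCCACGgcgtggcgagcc

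**Figure D1:**
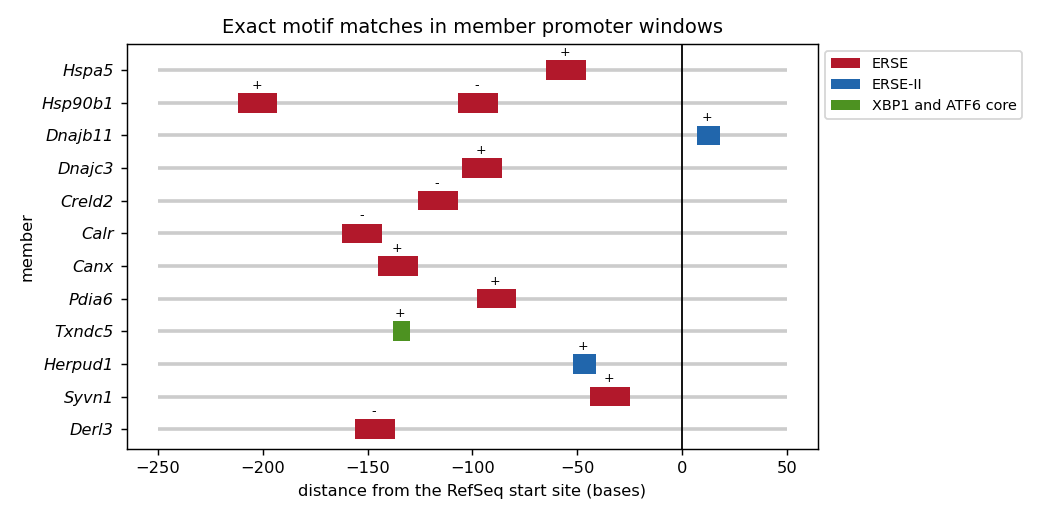
Positions of exact motif matches in the promoter windows of the 12 member genes that hold any; the x axis is the distance in bases from the RefSeq start site, colours give the motif and signs the strand of the match. The ERSE matches lie between 212 bases before the start (Hsp90b1) and 26 bases before it (Syvn1), and the ERSE-II match of Dnajb11 lies after the start.

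Total counts were between 19490235 and 51714775 a library, and values are given as CPM, that is, counts scaled to 1000000 on TMM-adjusted library sizes. Beta cell markers were high in every library, with Ins2 between 59881 and 145739 CPM and Ins1 between 19980 and 55400 CPM. Markers of other islet cells were present at lower levels, Gcg of alpha cells at 104 to 3965 CPM and Sst of delta cells at 98.3 to 765 CPM. Insr, which is deleted only in liver and therefore checks no label here, lay between 33.4 and 63.5 CPM over the 18 libraries. Ctrl HFD replicates 1 and 2 stood apart: Malat1 took 1.37% and 1.06% of their counts, against 0.0866% to 0.6% in the other 16, their share of counts in protein-coding genes was 95.7% and 95.6%, against 97.1% to 98.8%, and their totals were the lowest. Both lay below all other 16 libraries in 15 of the 37 genes and above them in Fkbp2 alone. The LIRKO chow libraries fall into the pairs 1 with 2 and 3 with 4, which were more alike than any other 2 libraries of a group (scaled median absolute deviation of their log2 differences 0.105 and 0.117, the next closest 0.194, over 12852 genes), though they differed by more than counting noise (chi-square per degree of freedom 6.03 and 7.99). For the 37 genes, the count that passed in a comparison is therefore also given with each of these pairs summed to 1 library, and without the Ctrl HFD pair. Counts of markers and of genes with or without ERSE are from the fit over all libraries only.

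The 37 genes together took 1.33, 1.59 and 1.67% of the counts in the LIRKO HFD libraries and 1.86, 1.88, 2.06 and 2.03% in the LIRKO chow libraries. In the Ctrl HFD libraries the share was 0.932, 1.07, 1.48, 1.59 and 1.25%, and in the 6 Ctrl chow libraries it ran between 1.26 and 1.65%. LIRKO cells on chow thus held the highest shares, with no overlap with any other group, and the lowest were the Ctrl HFD replicates that stood apart. In bulk samples fewer cells of a type and less RNA per cell cannot be told apart. Per kilobase of exon, Hspa5 (BiP, the Hsp70 chaperone of the ER lumen) was the most abundant in Ctrl cells on chow, at 503 ± 90.6 CPM per kb, followed by Calr at 435 ± 78.2, Pdia3 at 421 ± 93.7, Hsp90b1 at 390 ± 102 and P4hb at 385 ± 88.3 (SD, n = 6). Neighbours in this order differ by less than their SD. The least abundant were Fkbp11 at 4.02 ± 0.766, Derl3 at 2.34 ± 0.713 and Fkbp14 at 2.03 ± 0.278 CPM per kb. In LIRKO cells on chow Derl3 stood at 20.2 ± 3.86, Fkbp11 at 12.7 ± 1.05 and Fkbp14 at 2.03 ± 0.148 CPM per kb (SD, n = 4), so that Derl3 and Fkbp11 lay well above Fkbp14 there.

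**Figure D2:**
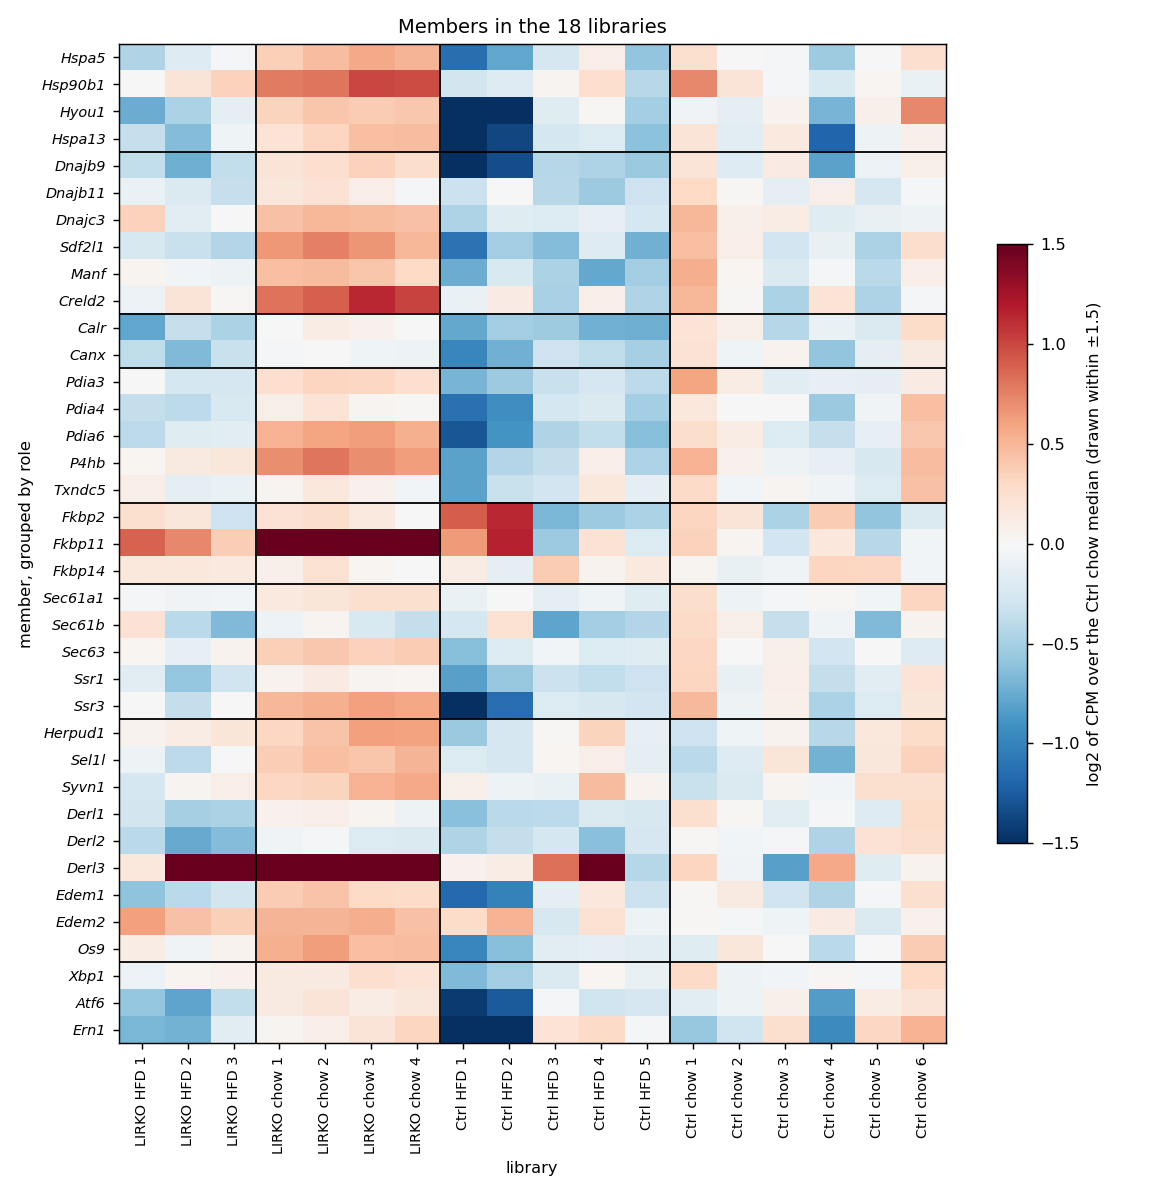
Level of the 37 genes (rows, grouped by role) in the 18 libraries (columns) as log2 of CPM over the median of the 6 Ctrl chow libraries, drawn within ±1.5. The LIRKO chow columns are mostly above 0, the columns of Ctrl HFD replicates 1 and 2 are mostly below 0, and Derl3 and Fkbp11 exceed the colour range in all 4 LIRKO chow libraries.

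LIRKO cells on chow, set against Ctrl cells on chow, address whether the beta cell changes when the liver lacks the insulin receptor. Of the 37 genes 6 were higher and none lower (edgeR's quasi-likelihood test, adjusted p under 0.05), where 5.15% of all genes tested passed, 2.95% higher and 2.2% lower. The 6 are the degradation factors Derl3 and Edem2, the chaperone Hsp90b1, the secreted or lumenal factors Creld2 and Sdf2l1 and the prolyl isomerase Fkbp11. Of all 37 genes 32 had a log2 change above 0 and 5 one below, and the median over all 37 was 0.37, against -0.02 over all genes tested. In 17 of the 37 genes every LIRKO library lay above every Ctrl library, against 6.46% of all genes, and in none did every one lie below, against 5.21%. With the alike LIRKO libraries summed in pairs, a choice made after seeing the data, these were 18 genes, against 8.57%, and none, against 7.08%.

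Derl3 encodes a Derlin of the retrotranslocation channel, known for high expression in professional secretory cells (ENSMUSG00000009092, chromosome 10, 75893413 to 75895941, GRCm38). It had 34.2, 33.2, 47.6 and 46.3 CPM in the LIRKO chow libraries, against a lowest, median and highest of 2.57, 4.53 and 6.7 CPM in the 6 Ctrl chow libraries. The groups are far apart, by 8.65-fold or a log2 change of 3.11 ± 0.39 (SE; edgeR adjusted p = 0.000189). Its paralogs did not pass the test. Derl1, another Derlin of the channel, had 362, 370, 356 and 327 CPM, against 301, 345 and 417 CPM, and its log2 change was -0.00 ± 0.12. Derl2 had 151, 155, 136 and 135 CPM, against 115, 157 and 189 CPM, with a log2 change of -0.14 ± 0.13. For both, the LIRKO values sit inside the Ctrl range.

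Edem2 encodes a mannosidase-like protein that marks misfolded glycoproteins for degradation, and it was the degradation factor with the tightest values. It had 129, 129, 132 and 123 CPM in LIRKO cells, against 78, 90.4 and 98.3 CPM in Ctrl cells (log2 change 0.52 ± 0.13, edgeR adjusted p = 0.0228). No library overlapped, but the call was lost without LIRKO chow replicate 1, 2 or 3. Other degradation factors were also higher in every LIRKO library without passing the test. Herpud1, a scaffold of the degradation complex, had 379, 410, 467 and 463 CPM, against 229, 305 and 368 CPM (log2 change 0.52 ± 0.16, edgeR adjusted p = 0.0694). Syvn1 (HRD1), the ubiquitin ligase of the complex, had 67.8, 69, 78.2 and 81.3 CPM, against 43.5, 54.6 and 64.8 CPM (0.43 ± 0.14, edgeR adjusted p = 0.08). Sel1l, its adaptor, Os9, a lectin that delivers substrates, and Edem1, a relative of Edem2, complete the set, with log2 changes of 0.50 ± 0.17, 0.51 ± 0.17 and 0.39 ± 0.21 and edgeR adjusted p of 0.107, 0.0856 and 0.333.

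Among the large chaperones Hsp90b1 (GRP94, the Hsp90 of the ER) was the only 1 of 4 that passed. It had 2463, 2495, 2884 and 2826 CPM in LIRKO cells, against 1220, 1435 and 2360 CPM in Ctrl cells. The groups do not overlap, the nearest Ctrl library being replicate 1, and the log2 change was 0.76 ± 0.18 (1.7-fold, edgeR adjusted p = 0.0171); the call was lost without LIRKO chow replicate 3. Hspa5 had 2711, 2900, 3135 and 3005 CPM, against 1457, 2111 and 2506 CPM, again without overlap, with a log2 change of 0.47 ± 0.20 (edgeR adjusted p = 0.217). Hspa13, another Hsp70 relative, and Hyou1 (GRP170, a nucleotide exchange factor of BiP) had log2 changes of 0.47 ± 0.29 and 0.33 ± 0.31 and did not pass.

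Of the 6 co-chaperones and secreted factors, 2 passed. Creld2, a factor with disulfide isomerase activity (ENSMUSG00000023272, chromosome 15, 88819646 to 88826683), had 214, 227, 268 and 247 CPM in LIRKO cells, against 87.5, 122 and 172 CPM in Ctrl cells. That is 1.96-fold (log2 change 0.97 ± 0.18, edgeR adjusted p = 0.00338), with no overlap. Sdf2l1, a partner of the BiP co-chaperone Dnajb11, had 128, 137, 129 and 115 CPM, against 58.7, 81.4 and 111 CPM (log2 change 0.62 ± 0.17, edgeR adjusted p = 0.0411), and its call was lost in 9 of 18 fits that left out 1 library (LIRKO chow replicate 1, 2 or 3, Ctrl chow replicate 2, 3, 4 or 5, or LIRKO HFD replicate 2 or 3). Dnajb11 itself had a log2 change of 0.10 ± 0.12. Dnajc3, an inhibitor of PERK and BiP co-chaperone, Manf, a secreted factor known to support beta cell survival in mice, and Dnajb9, a co-chaperone that restrains IRE1, had log2 changes of 0.39 ± 0.14, 0.37 ± 0.15 and 0.34 ± 0.23, and none of the 3 passed.

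The prolyl isomerase Fkbp11 (ENSMUSG00000003355, chromosome 15, 98724366 to 98728198, minus strand), which like Derl3 is known from secretory tissues, had 31.4, 33.1, 38 and 35.4 CPM in LIRKO cells, against 8.23, 11 and 13.9 CPM in Ctrl cells. The lowest LIRKO library was above the highest Ctrl library by a wide margin (3.17-fold, log2 change 1.66 ± 0.24, edgeR adjusted p = 0.000498). Its relatives differed little: the log2 change was 0.17 ± 0.32 for Fkbp2 and -0.00 ± 0.13 for Fkbp14, an isomerase that acts on collagen. The lectin chaperones calreticulin (Calr) and calnexin (Canx), which hold newly made glycoproteins, had log2 changes of 0.06 ± 0.14 and 0.00 ± 0.16. Of the 5 disulfide isomerases, which form and shuffle disulfide bonds, none passed. P4hb (PDI itself) came nearest, with 1628, 1756, 1635 and 1554 CPM, against 847, 1004 and 1445 CPM (0.58 ± 0.18, edgeR adjusted p = 0.0661). Pdia6, a regulator of IRE1 signalling, had 867, 906, 929 and 876 CPM, against 476, 603 and 799 CPM (0.52 ± 0.17, edgeR adjusted p = 0.0892). For both, all 4 LIRKO values lie above the Ctrl range, whereas Pdia3, Pdia4 and Txndc5 had log2 changes of 0.20 ± 0.15, 0.06 ± 0.18 and -0.04 ± 0.16.

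None of the 5 translocation genes passed, with log2 changes between -0.07 (Sec61b, a small subunit of the channel) and 0.53 (Ssr3, a subunit of the translocon-associated complex). Nor did the sensors: Xbp1, the factor made by IRE1 splicing, had 339, 339, 367 and 355 CPM, against 291, 308 and 380 CPM (0.10 ± 0.13), and Atf6 and Ern1 had 0.23 ± 0.24 and 0.20 ± 0.37. Gene counts pool the spliced and unspliced forms of Xbp1, so the activity of IRE1 is not read from them.

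**Figure D3:**
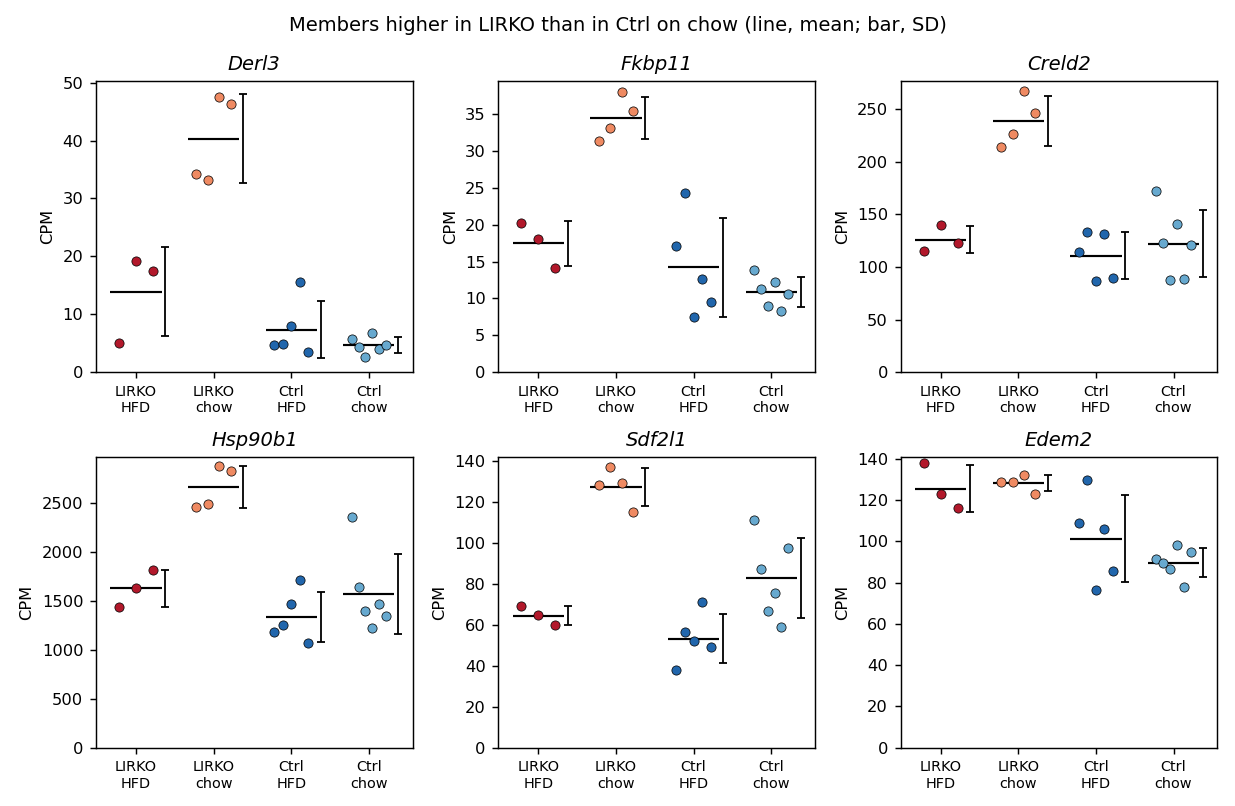
CPM of the 6 genes that passed the test in LIRKO against Ctrl cells on chow, by library (points), with the group mean (line) and SD (bar) in the 4 groups. For each gene the 4 LIRKO chow points lie above all 6 Ctrl chow points, and for Derl3, Fkbp11, Creld2, Hsp90b1 and Sdf2l1 they also lie above all 3 LIRKO HFD points.

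With the LIRKO chow pairs summed, 2 of the 6 passed, where 0.976% of all genes did: Derl3 (log2 change 3.12, edgeR adjusted p = 0.00552) and Fkbp11 (1.67, edgeR adjusted p = 0.0136). Creld2 had 0.98 there with an edgeR adjusted p of 0.0558. When the Ctrl HFD replicates that stood apart were left out of the fit, although neither group compared holds them, 13 passed, where 9.32% of all genes did. The count was 3 without LIRKO chow replicate 3 (2.25% of all genes), and 10 without Ctrl HFD replicate 1 (5.89%) or Ctrl chow replicate 1 (4.79%). Because Derl3 and Fkbp11 are also expressed in exocrine and plasma cells, markers of those cells were read in the same libraries. The 19 acinar markers, of which 16 were tested and Amy2a5 was at 0 in every library, summed to 320, 387, 119 and 81.2 CPM in the LIRKO chow libraries, against 46.7 to 765 CPM in the Ctrl chow libraries, and 0 of the 16 passed in any comparison. Bhlha15 and Ctrb1 were the most abundant of them. The 10 B and plasma cell markers summed to between 2 and 3.04 CPM in LIRKO cells and between 2.87 and 5.83 CPM in Ctrl cells, with Cd79a and Mzb1 the most abundant. Of the other lists, 2 of 8 alpha and 1 of 5 ductal markers were higher in LIRKO cells on chow, and 1 of 10 beta, 1 of 10 macrophage and 1 of 2 PP cell markers were lower. The 8 alpha markers summed to 936, 956, 2368 and 2562 CPM in the LIRKO chow libraries, against 1015 to 2200 CPM in the Ctrl chow libraries. Their median log2 change was -0.08. The part of any of these cells, acinar and plasma cells included, in the result was not tested.

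The same question on HFD, LIRKO against Ctrl, gave no gene of the 37 that passed the edgeR test, where 0.508% of all genes did. At an unadjusted p under 0.05 there were 6 of 37, against 7.81% of all genes, the smallest adjusted p was 0.324 and DESeq2 also called none. None passed either with the LIRKO chow pairs summed (0.273% of all genes) or without Ctrl HFD replicates 1 and 2 (1.02%). The median log2 change was 0.21, against -0.04 over all genes. Manf and Os9 were the 2 genes whose LIRKO libraries all lay above the Ctrl libraries, a pattern shown by 2.51% of all genes, and no gene of the 37 had all of them below, against 2.5%. Manf had 280, 266 and 258 CPM in LIRKO cells, against 163, 233, 197, 160 and 190 CPM in Ctrl cells (log2 change 0.51 ± 0.17), and Os9 had 349, 311 and 335 CPM, against 164, 207, 286, 292 and 286 CPM (0.42 ± 0.19). Of the marker lists, 1 of 8 alpha markers was higher and no other marker passed.

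The genes that stood out on chow overlapped on HFD. Derl3 had 5.05, 19.1 and 17.5 CPM in LIRKO cells, against 4.72, 4.89, 8.02, 15.6 and 3.38 CPM in Ctrl cells (0.92 ± 0.43, edgeR adjusted p = 0.633). LIRKO HFD replicate 1 was at the Ctrl level and Ctrl HFD replicate 4 at the LIRKO level. In the same order of libraries, the 8 alpha markers summed to 964, 3272 and 4095 CPM in LIRKO cells. In Ctrl cells the alpha sums were 782, 1483, 4550, 4687 and 991 CPM. The part of alpha cells in the Derl3 values was not tested. Fkbp11 had 20.2, 18.1 and 14.1 CPM, against 17.1, 24.3, 7.49, 12.7 and 9.48 CPM (0.30 ± 0.28), the 2 highest Ctrl values being the libraries that stood apart. Creld2, Hsp90b1 and Sdf2l1 had log2 changes of 0.18 ± 0.20, 0.29 ± 0.20 and 0.27 ± 0.19, and Edem2 had 0.31 ± 0.14. Without Ctrl HFD replicates 1 and 2, a choice made after seeing the data, LIRKO libraries lay above the remaining 3 Ctrl libraries in Manf, Fkbp2, Fkbp11, Sec61a1, Edem2 and Os9, which is 6 genes against 10.6% of all genes, and below them in Atf6 and Ern1, against 11.5%.

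Diet was compared first in Ctrl cells, HFD against chow. None of the 37 genes was higher and 11 were lower, where 9.93% of all genes passed, 5.57% higher and 4.35% lower. The 11 are both lectin chaperones (Calr and Canx), 3 of 5 disulfide isomerases (Pdia3, Pdia4 and Pdia6), 3 of 6 co-chaperones and secreted factors (Manf, Sdf2l1 and Dnajb9), 2 of 9 degradation factors (Derl1 and Derl2) and Ssr1 of the translocon. The median log2 change was -0.37, against 0.04 over all genes, and 31 of the 37 lay below 0. All 5 HFD libraries lay below all 6 chow libraries in Calr, Pdia3, Pdia6 and Derl1, which is 4 genes, against 2.13% of all genes, and above them in none, against 1.43%.

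Calr (ENSMUSG00000003814, chromosome 8, 84841850 to 84846934, minus strand) had 738, 877, 867, 765 and 757 CPM in Ctrl cells on HFD, against 940, 1259 and 1527 CPM on chow. Its values fell without overlap, by 1.57-fold (log2 change -0.65 ± 0.13, edgeR adjusted p = 0.0242). Canx had 471, 566, 753, 718 and 659 CPM, against 620, 932 and 1081 CPM, so that the groups overlap (-0.52 ± 0.15, edgeR adjusted p = 0.0433). Pdia6 (ENSMUSG00000020571, chromosome 12, 17266545 to 17284770) had 247, 324, 441, 465 and 388 CPM, against 476, 603 and 799 CPM (-0.74 ± 0.16, edgeR adjusted p = 0.0294). Pdia3, the partner of the lectin chaperones, had 767, 854, 986, 1047 and 946 CPM, against 1102, 1243 and 1878 CPM (-0.52 ± 0.14, edgeR adjusted p = 0.0388). Both isomerases were lower in every HFD library. The log2 changes of Pdia4, Manf, Sdf2l1, Dnajb9, Ssr1, Derl1 and Derl2 lay between -0.73 (Dnajb9) and -0.40 (Derl2), with edgeR adjusted p between 0.0348 and 0.0499.

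Of the 6 genes that were higher in LIRKO cells on chow, Sdf2l1 alone passed in this comparison. It fell to 37.7, 56.5, 51.9, 71 and 49.3 CPM on HFD, against 58.7, 81.4 and 111 CPM on chow (-0.63 ± 0.16, edgeR adjusted p = 0.0352). Hsp90b1 and Creld2 had log2 changes of -0.23 ± 0.17 and -0.14 ± 0.17, while Derl3, Fkbp11 and Edem2 had 0.66 ± 0.37, 0.38 ± 0.23 and 0.18 ± 0.12, and none of these 5 passed. Without Ctrl HFD replicates 1 and 2 the values were 0.99 for Derl3, -0.09 for Fkbp11 and 0.04 for Edem2, and without Ctrl HFD replicate 4 Derl3 had 0.18. Hspa5 had 964, 1230, 1779, 2260 and 1397 CPM, against 1457, 2111 and 2506 CPM (-0.48 ± 0.19, edgeR adjusted p = 0.0965). Fkbp2 had 257 and 298 CPM in the libraries that stood apart and 85, 93.9 and 98.2 CPM in the other HFD libraries, against 90.3, 137 and 178 CPM on chow. Its log2 change was 0.30 ± 0.30 with all libraries and -0.50 without those 2.

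**Figure D4:**
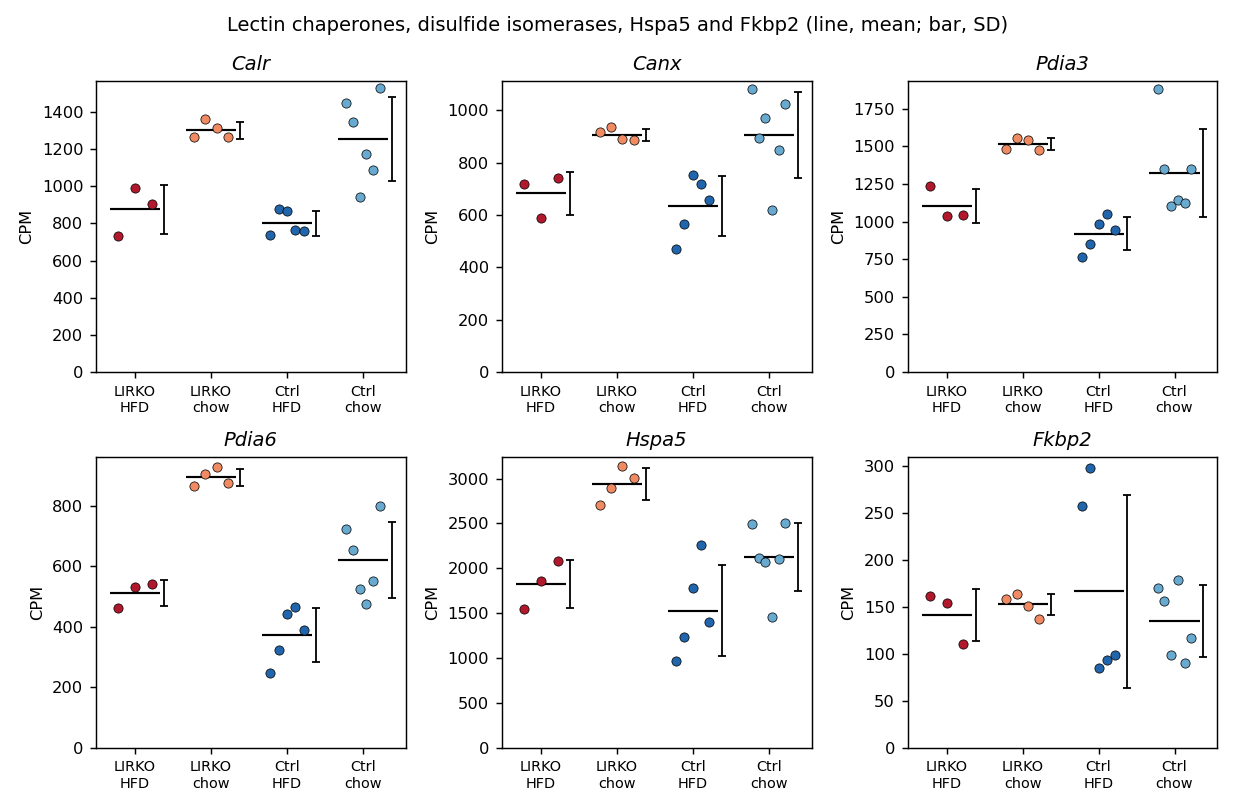
CPM of both lectin chaperones, of Pdia3 and Pdia6, of Hspa5 and of Fkbp2 by library (points), with the group mean (line) and SD (bar) in the 4 groups. Calr, Pdia3 and Pdia6 are lower in all 5 Ctrl HFD libraries than in all 6 Ctrl chow libraries, and Fkbp2 splits the Ctrl HFD libraries into 2 near 257 to 298 CPM and 3 below 100 CPM.

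The count of 11 did not hold when libraries that stood apart were left out. Without Ctrl HFD replicates 1 and 2, 0 of the 37 passed, where 0.18% of all genes did, the median was -0.21, and the non-overlapping genes were Dnajb11, Manf, Calr, Pdia3, Pdia6 and Derl1, 6 lower against 3.56% of all genes and 0 higher against 3.25%. Calr had a log2 change of -0.61 there (edgeR adjusted p = 0.107) and Pdia6 one of -0.48 (edgeR adjusted p = 0.156). None passed either with the LIRKO chow pairs summed (0.577% of all genes), with only the Ctrl groups in the fit (0.00585%), or without Ctrl HFD replicate 1 or Ctrl chow replicate 1, 2 or 6 (0.359% to 0.829%). Without Ctrl HFD replicate 2 there was 1 (0.506% of all genes), and there were 4 to 7 without Ctrl chow replicate 3 or 5, LIRKO HFD replicate 2 or 3 or LIRKO chow replicate 1, 2 or 3 (4.19% to 8.35%), so that the members' count moved with that over all genes. Some markers of other cells moved with diet: 3 of 10 endothelial markers were higher on HFD. The endothelial sum was 160 to 323 CPM on HFD, against 40 to 207 CPM on chow, with Kdr and Flt1 the most abundant. Stellate and fibroblast markers, led by Rgs5 and Col3a1, summed to 13.2 to 75.6 CPM, against 2.31 to 16.8 CPM, with none of 8 passing. Both sums overlap between the diets. Of the alpha markers 1 of 8 was higher, and 3 of 10 beta cell markers were lower. The part of these markers in the result was not tested.

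In LIRKO cells, HFD against chow, 0 of the 37 genes were higher and 2 lower, Sdf2l1 and Creld2, where 2.03% of all genes passed and 0.975% were lower. In direction the genes were nearly uniform. The log2 change was below 0 in 36 of 37, Fkbp14 being the exception, the median was -0.48, against 0.03 over all genes, and in 32 of 37 all 3 HFD libraries lay below all 4 chow libraries, against 18.3% of all genes (above in none, against 16.1%). The 5 genes whose libraries overlapped were Edem2, Fkbp2, Fkbp14, Sec61b and Txndc5. The 4 chow libraries are the 2 pairs of alike libraries named above, and with each pair summed there were again 32 below, against 21.8% of all genes, and none above, against 20.6%. The shares of Malat1 and of protein-coding genes in the counts moved with diet in LIRKO cells, without overlap. Whether they reflect RNA quality was not tested. Malat1 took 0.486% to 0.6% of the counts on HFD, against 0.228% to 0.37% on chow. Protein-coding genes took 97.1% to 98%, against 98.1% to 98.5%, so the nearest libraries were close. In Ctrl cells both overlapped between the diets (Malat1 0.276% to 1.37% against 0.0866% to 0.368%, protein-coding 95.6% to 98% against 97.7% to 98.8%). The part of these shares in the LIRKO result was not tested either.

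Sdf2l1 had 69.1, 64.6 and 59.8 CPM on HFD, against 128, 137, 129 and 115 CPM on chow (fell by 1.97-fold, log2 change -0.98 ± 0.21, edgeR adjusted p = 0.0223). Creld2 had 115, 140 and 123 CPM, against 214, 227, 268 and 247 CPM (fell by 1.9-fold, -0.93 ± 0.22, edgeR adjusted p = 0.0327). Both are far from overlap. Pdia6 had 461, 533 and 541 CPM, against 867, 906, 929 and 876 CPM (-0.81 ± 0.21, edgeR adjusted p = 0.0539). Hsp90b1 had 1443, 1635 and 1821 CPM, against 2463, 2495, 2884 and 2826 CPM (-0.71 ± 0.22, edgeR adjusted p = 0.0996), and Hspa5 had 1547, 1854 and 2079 CPM, against 2711, 2900, 3135 and 3005 CPM (-0.69 ± 0.25, edgeR adjusted p = 0.164). For these 3 the HFD libraries were all lower than the chow libraries, and none passed in the fit over all groups. Derl3 had 5.05, 19.1 and 17.5 CPM, against 34.2, 33.2, 47.6 and 46.3 CPM (-1.54 ± 0.47, edgeR adjusted p = 0.105). Fkbp11 had 20.2, 18.1 and 14.1 CPM, against 31.4, 33.1, 38 and 35.4 CPM (-0.98 ± 0.30, edgeR adjusted p = 0.096). Edem2, by contrast with the other 5 genes that were higher on chow, had 138, 123 and 116 CPM on HFD and 129, 129, 132 and 123 CPM on chow, with a log2 change of -0.03 ± 0.15.

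The number of genes called in LIRKO cells depended on which libraries were in the fit. With only the LIRKO groups in the fit, 29 passed, where 18.8% of all genes did. The only chow libraries in that fit are the alike pairs, counted as separate libraries, so its spread may be understated and its p-values too small. Without Ctrl HFD replicates 1 and 2, 10 passed (6.29% of all genes), and with the chow pairs summed none did (0.0354% of all genes). None passed without LIRKO HFD replicate 1, 2 or 3 or LIRKO chow replicate 1 or 2 (0.284% to 0.498% of all genes), 1 without LIRKO chow replicate 3 or 4 (1.78% and 1.46%), and 4 without Ctrl HFD replicate 4 (2.31%). Endothelial markers summed to 258 to 318 CPM on HFD, against 18.9 to 186 CPM on chow, and macrophage markers, led by Cd74 and C1qa, to 308 to 377 CPM, against 116 to 234 CPM, neither with any overlap, and 1 endothelial and 2 macrophage markers of 10 each were higher. Stellate and fibroblast markers summed to 32.5 to 41.1 CPM, against 1.32 to 23.6 CPM, with none of 8 passing, and 1 of 10 beta cell markers was lower. The part of these markers in the result was not tested.

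**Figure D5:**
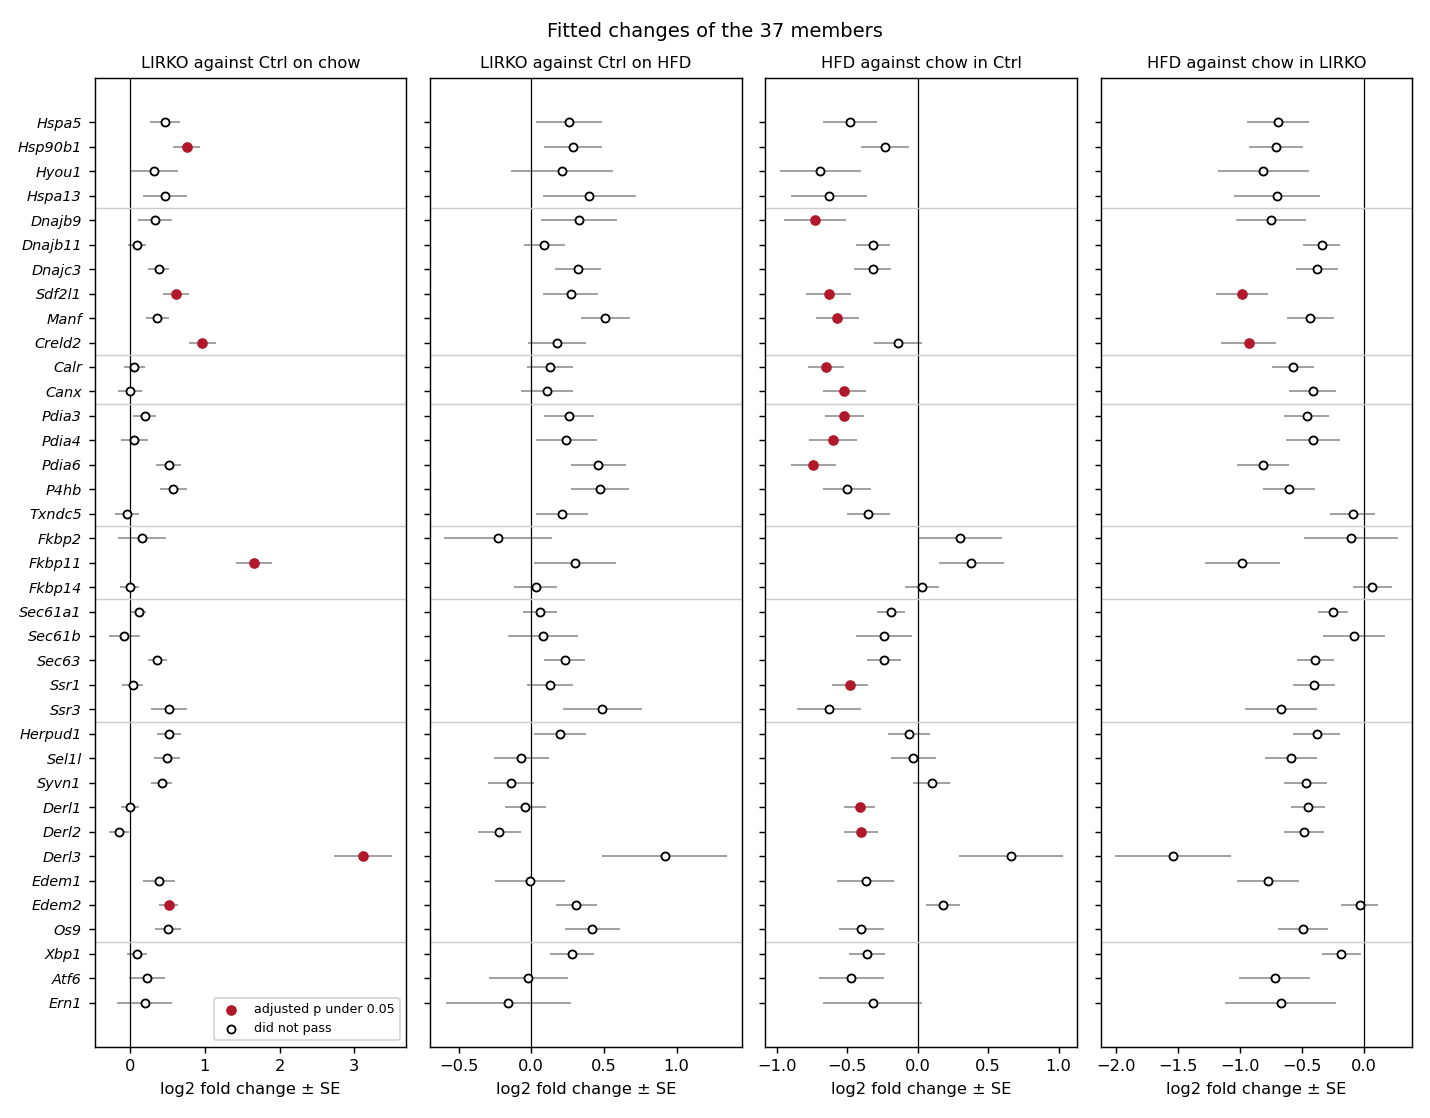
Fitted log2 fold changes with SE of the 37 genes (rows, grouped by role) in the 4 pairwise comparisons, filled where the edgeR adjusted p was under 0.05. On chow the LIRKO changes are above 0 for most genes with Derl3 at 3.11 and Fkbp11 at 1.66, and in LIRKO cells the diet changes are below 0 for 36 of 37.

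Whether the effect of the genotype differs with diet was tested by the interaction term, on which 0 of the 37 genes passed by edgeR or by DESeq2, where 0.00519% of all genes (1 gene) did by edgeR. At an unadjusted p under 0.05 there were 5, against 5.52% of all genes. They are Derl3 (log2 difference of the LIRKO effect on HFD from that on chow -2.19 ± 0.60, edgeR adjusted p = 0.449), Fkbp11 (-1.36 ± 0.37, edgeR adjusted p = 0.449), Creld2 (-0.79 ± 0.27, edgeR adjusted p = 0.711), Syvn1 (-0.57 ± 0.21) and Sel1l (-0.56 ± 0.26). None passed either with the LIRKO chow pairs summed (0% of all genes) or without Ctrl HFD replicates 1 and 2 (0.0422%). A difference between the diets in the effect of the genotype was thus not shown for any of the 37. The chow and HFD comparisons use the same LIRKO and Ctrl libraries as the diet comparisons, so opposite signs in a gene are in part the same measurement.

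Genes with ERSE in the window can be set beside those without it. On chow, LIRKO against Ctrl, the median log2 change was 0.47 over the 9 genes with it and 0.27 over the 22 without, and 3 genes of each passed: Creld2, Derl3 and Hsp90b1 with it, Edem2, Fkbp11 and Sdf2l1 without it. In Ctrl cells, HFD against chow, the medians were -0.32 and -0.36, and Calr, Canx and Pdia6 passed among the 9 and 6 genes among the 22. In LIRKO cells, HFD against chow, they were -0.69 and -0.44. These are descriptions without a test.

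A wider list of 83 other ER genes, of which 82 were tested, places the 37 among their neighbours. On chow, LIRKO against Ctrl, 2 of 82 were higher, where 2.95% of all genes were, and none lower, where 2.2% were, with a median of 0.12. The 2 are Prdx4, the peroxiredoxin of the ER lumen (log2 change 0.77 ± 0.18, edgeR adjusted p = 0.0168), and Fkbp7, a prolyl isomerase (0.82 ± 0.23, edgeR adjusted p = 0.0411). Fkbp7 was low and its groups overlap, at 2.44 to 3.38 CPM in LIRKO cells, against 1.39 to 2.74 CPM in Ctrl cells. None of the 82 passed with the LIRKO chow pairs summed, and 12 were higher and 1 lower without Ctrl HFD replicates 1 and 2 (9.32% of all genes). On HFD, LIRKO against Ctrl, none passed. In Ctrl cells, HFD against chow, 16 were lower, where 4.35% of all genes were, and 1 higher, where 5.57% were, with a median of -0.32. The 16 include 5 of 10 subunits of oligosaccharyltransferase, which attaches the glycan that the lectin chaperones read. None of the 82 passed without Ctrl HFD replicates 1 and 2 (0.18% of all genes) or with the LIRKO chow pairs summed (0.577%). The 3 lower genes with the smallest p were the isomerase Fkbp9 (-0.78 ± 0.18, edgeR adjusted p = 0.0315), the oligosaccharyltransferase subunit Ddost (-0.46 ± 0.12, edgeR adjusted p = 0.0341) and the ubiquitin-conjugating enzyme Ube2j1 of ER-associated degradation (-0.55 ± 0.14, edgeR adjusted p = 0.0352). The higher gene was Fkbp10, an isomerase for collagen (1.46 ± 0.35, edgeR adjusted p = 0.0315). It was low, at 0.858 to 2.19 CPM on HFD, against 0.21 to 0.758 CPM on chow. In LIRKO cells, HFD against chow, none of the 82 passed, where 2.03% of all genes did, with a median of -0.25. None passed either with the LIRKO chow pairs summed (0.0354% of all genes). By contrast 6 were lower without Ctrl HFD replicates 1 and 2 (6.29%) and 26 with only the LIRKO groups in the fit (18.8%). The only chow libraries in the latter fit are the alike pairs, so its p-values may be too small.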

How the data were processed

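Sorted beta cell RNA was made into directional libraries, per the labels' protocols, and reads were aligned and counted with STAR and featureCounts on GRCm38, per the submitters' processing notes; the sources used here name no versions, annotation release or strand setting. The deposited values are raw counts per gene, 19490235 to 51714775 a library. Of 53090 IDs, 52489 matched GENCODE M21, which gave symbols, coordinates and exon lengths; the 601 others held at most 0.0176% of a library.

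Groups follow genotype and diet in the labels; replicate numbers are in accession order and only name libraries. edgeR 4.0.16 (R 4.3.3, limma 3.58.1) fitted all 18 libraries with 1 coefficient per group after filterByExpr and TMM. Two-sided quasi-likelihood tests were adjusted by Benjamini-Hochberg over 19284 genes within each of 5 comparisons. The SE is the size of the log2 change over the root of F. The common dispersion had a square root of 0.314. The pipeline was tested on simulated data, with counts drawn independently for each library. These held no alike pairs and no libraries that stood apart, so the simulation does not show how the tests behave with either. Alternatives were DESeq2 1.42.0 and its size factors, no filter, only the groups compared, LIRKO chow pairs summed, Ctrl HFD replicates 1 and 2 left out, and each library left out.

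The 37 genes, the wider ER list and the marker lists were chosen with earlier results of these data known. All 37 genes, up to 4 of the wider list with the smallest p per comparison, and the 2 most abundant markers of a list were to be named. Hsp90b1, Hspa13, Dnajb9, Dnajb11, Manf, Pdia3, Pdia6, Txndc5, Fkbp14, Sec61a1, Sec63, Herpud1, Syvn1 and Derl2 overlap antisense genes, Hsp90b1, Hspa13, Manf, Pdia4, Syvn1 and Atf6 overlap genes on their own strand, and Calr has a pseudogene copy, so reads there may be shared.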

Additional observations from a re-analysis of the deposited data

Results flagged for a closer look

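Of 111 combinations of gene and group with 4 to 6 libraries, 3 held a library far from the others of its group by Dixon's criterion, which chance gives in about 1 of 20. Hsp90b1 had 2360 CPM in Ctrl chow replicate 1, against 1220 to 1640 CPM in the other 5, and Pdia3 had 1878 CPM in the same library, against 1102 to 1350 CPM. Hspa13 had 55.6 CPM in Ctrl chow replicate 4, against 113 to 145 CPM in the others. Ctrl chow replicate 1 was the highest of all 18 libraries in 7 of the 37 genes.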

How the results depend on the processing

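No paired analysis was possible because the labels carry no replicate numbers. Shares in brackets are those of all genes tested that passed in the same fit. On chow, LIRKO against Ctrl, 6 genes passed as reported (5.15%), 12 with only the groups compared (9.52%), 13 without Ctrl HFD replicates 1 and 2 (9.32%), 14 with DESeq2 (8.55%), 2 with LIRKO chow pairs summed (0.976%), and 3 to 10 when 1 library was left out (2.25% to 5.89%). In Ctrl cells, HFD against chow, 11 passed as reported (9.93%), 15 with DESeq2 (20.5%), 2 without the filter (1.28%), and 0 with only the groups compared (0.00585%), without Ctrl HFD replicates 1 and 2 (0.18%) or with pairs summed (0.577%). When 1 library was left out there were 0 to 16 (0.359% to 20.1%). In LIRKO cells, HFD against chow, 2 passed as reported (2.03%), 29 with only the groups compared (18.8%), 10 without Ctrl HFD replicates 1 and 2 (6.29%), 9 with DESeq2 (5.49%), 0 with pairs summed (0.0354%) and 0 to 4 when 1 library was left out (0.284% to 2.62%). The 29 come from a fit whose only chow libraries are the alike pairs, so its p-values may be too small. The interaction median was -0.08 as reported and -0.28 without Ctrl HFD replicates 1 and 2, and -0.19 to -0.02 when 1 library was left out. On HFD, LIRKO against Ctrl, 8 genes did not overlap without those 2 libraries, a choice made after seeing the data, against 2 as reported, and over all genes the shares were 10.6% above and 11.5% below, against 2.51% and 2.5%. Leaving those 2 out reversed, in LIRKO against Ctrl on HFD, Hyou1 (-0.22), Dnajb9 (-0.00) and Fkbp2 (0.62), and, in HFD against chow in Ctrl, Edem1 (0.00), Ern1 (0.24), Fkbp11 (-0.09) and Fkbp2 (-0.50). Leaving out 1 library reversed Ern1 on HFD (-0.37 to 0.06) and Fkbp2 (-0.40 to 0.09 on HFD, -0.01 to 0.47 by diet in Ctrl). The cause was not tested. Single genes were followed over 24 settings in 119 log2 changes, which are not all that were fitted. These either passed as reported, were at least 0.15 in size in a pairwise comparison, or had an unadjusted p under 0.05 in the interaction. Changes nearer to 0 were left out, so the reversals named here do not cover them. Of 2851 values, 2570 kept direction and side of the threshold, 172 lost and 98 gained the call, and 11 reversed. The 172 all fall on the 6, 11 and 2 genes that passed as reported, since no other value had a call to lose. Of the 11 in Ctrl cells, Calr lost its call in the fewest settings, 7 of 24, and Derl2 in the most, 19 of 24.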
